A study of Mus musculus with 6 samples.

Results

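The purinergic receptor and ectonucleotidase genes described here are 10 genes, chosen by name, of 47719 in the deposited table: the P2Y-family receptor genes P2ry12, P2ry13, P2ry6 and Gpr34, the P2X channel genes P2rx4 and P2rx7, the adenosine receptor genes Adora1, Adora2a and Adora3, and the ectonucleotidase gene Entpd1. Each symbol stood on 1 row, and 9 of the 10 passed the filter on low levels, which asked for 1 FPKM or more on average (fragments per kilobase, a level corrected for transcript length and library size). Adora1 did not pass. RNA was sequenced from spinal cord cells of Biozzi ABH mice, 3 months old, that were selected for CD11b, a surface integrin of microglia and other myeloid cells. The ECS group had electroconvulsive seizures, which a brief electrical stimulus induces, in 3 sessions on consecutive days, and the control group had no seizures. Both groups were killed on the following day. Labels call the controls naive, while the treatment protocol names a sham procedure. Each group had 3 libraries, and 5 mice were pooled for each library, so that n is the number of pools.

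Cells release ATP and other nucleotides when they are active or damaged, and microglia sense them through purinergic receptors. P2Y12 and P2Y13 are receptors for ADP coupled to inhibitory G proteins, and P2Y12 directs microglial processes towards a site of nucleotide release. P2Y6 responds to UDP and promotes phagocytosis, and GPR34, a relative of the P2Y receptors, responds to lysophosphatidylserine. P2X4 and P2X7 are cation channels that ATP opens. P2X4 of spinal microglia is known for its part in pain hypersensitivity after nerve injury, and P2X7 for activation of the NLRP3 inflammasome. Entpd1 encodes CD39, which removes phosphates from ATP and ADP outside the cell. The AMP that remains is turned into adenosine by CD73, the product of Nt5e, and adenosine acts on the receptors encoded by Adora1, Adora2a and Adora3.

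Markers of the selected cells were present in every library, and so were transcripts of other cells. All 12 microglia markers were detected in each library, with summed levels of 8665 to 13806.5 FPKM in ECS and 10542.5 to 15443 FPKM in control. The 12 neutrophil markers were at 10 FPKM or more in every library. They summed to 11073 to 14390 FPKM in ECS and 14406 to 25919 FPKM in control, ranges that nearly met. Their mean log2(FPKM + 1) overlapped between the groups, at 8.29 to 8.65 in ECS and 8.47 to 9.43 in control. Erythroid markers summed to 7210 to 77352 FPKM in ECS and 2232 to 32781 FPKM in control. B cell markers summed to 708 FPKM in ECS 1 and to 8.75 to 43.3 FPKM in the other libraries. Pax5 alone was at 652 FPKM in ECS 1, and 4 of the 6 B cell markers were highest there. Of 8 neuron markers, 5 were listed at 0 in all libraries. Total FPKM per library was 887144 to 926323 in ECS and 729831 to 1009665 in control. The number of reads behind a library is unknown, since FPKM does not keep it. ECS 1 had the fewest genes above 0 (11427, against 12987 to 14900 in the other libraries). It also held the lowest value of 32.2% of the 11315 tested genes and the highest of 24.8%. Where a log2 fold change given below changed sign or moved by over 1.5 times without ECS 1, that value is given too.

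Several of the genes share a chromosome segment. In GRCm38, with positions from GENCODE M21, P2ry12 (chromosome 3, 59216272 to 59262871) and P2ry13 (chromosome 3, 59207892 to 59210882) lie 5389 bases apart on the minus strand, inside the gene Med12l on the plus strand. They are also in 1 merged locus of the deposited table. P2rx7 (chromosome 5, 122643911 to 122691432) and P2rx4 (chromosome 5, 122707544 to 122729738) are neighbours on the plus strand with 16111 bases between them. Gpr34 (chromosome X, 13632089 to 13640858, plus strand) lies within Cask, which is on the minus strand. P2ry6 is on chromosome 7 (100937630 to 100974649, minus strand) and Entpd1 on chromosome 19 (40612366 to 40741602, plus strand). Adora1 is on chromosome 1 (134199223 to 134235431, minus strand), Adora2a on chromosome 10 (75316877 to 75334784, plus strand) and Adora3 on chromosome 3 (105870858 to 105908926, plus strand).

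The sources used here do not say whether quantification used strand, so the level of a gene that overlaps a member bears on it. Med12l shares 9 exon bases with P2ry12 and was at 10.7 to 13.8 FPKM in ECS and 11.1 to 13.5 FPKM in control, far below P2ry12. Cask shares no exon base with Gpr34 and was at 3.30 to 6.16 FPKM in ECS and 5.47 to 8.91 FPKM in control. Adora3 shares 779 exon bases with Tmigd3 on the same strand, and Tmigd3 was above 0.01 FPKM only in ECS 2, at 1.21 FPKM. The division of reads between Adora3 and Tmigd3 is an estimate, so the values of both are uncertain. Adora1 shares 1162 exon bases with Mybph on the opposite strand, and Mybph was at 0.898, 5.63 and 2.46 FPKM in ECS 1, 2 and 3, and at 4.44, 1.85 and 1.63 FPKM in control 1, 2 and 3. These were above Adora1 in 5 of the 6 libraries. The shared bases are part of the 5785 exon bases of Adora1. If strand was not used, reads in the shared part could belong to either gene, so the low Adora1 values are uncertain.

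The 250 bases before the transcription start are shown for 4 of these genes, because P2ry12 and P2ry13 are neighbours whose levels moved together between libraries, while Adora3 and P2rx4 did not follow them. Sequences and starts are from RefSeq on GRCm38.p6, in which 7 of the 10 genes matched, Gpr34, P2ry6 and Adora2a being the others. Each runs 5′ to 3′ on the strand of its gene, and capitals mark the letters AGGAAG or their reverse complement CTTCCT, a core found in sites of Ets-family factors such as PU.1, a lineage factor of myeloid cells. This motif was chosen after the sequences had been read, and no other was searched.
P2ry12 (chr3:59262986-59263235, minus strand): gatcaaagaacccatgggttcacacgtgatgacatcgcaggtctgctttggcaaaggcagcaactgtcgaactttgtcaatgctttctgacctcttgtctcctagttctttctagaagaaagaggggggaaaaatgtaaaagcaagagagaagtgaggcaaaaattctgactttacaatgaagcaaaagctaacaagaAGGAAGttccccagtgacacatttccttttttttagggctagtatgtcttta
P2ry13 (chr3:59210883-59211132, minus strand): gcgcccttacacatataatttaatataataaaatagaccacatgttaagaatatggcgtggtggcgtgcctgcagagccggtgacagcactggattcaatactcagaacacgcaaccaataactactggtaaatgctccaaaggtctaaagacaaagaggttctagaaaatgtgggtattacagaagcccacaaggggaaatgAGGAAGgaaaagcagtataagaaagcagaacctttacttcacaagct
Adora3 (chr3:105904171-105904420, plus strand): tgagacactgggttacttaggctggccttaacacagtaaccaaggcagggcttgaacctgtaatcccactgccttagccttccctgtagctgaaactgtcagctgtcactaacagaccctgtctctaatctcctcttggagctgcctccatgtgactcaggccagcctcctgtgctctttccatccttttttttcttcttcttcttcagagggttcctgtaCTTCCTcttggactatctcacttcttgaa
P2rx4 (chr5:122707294-122707543, plus strand): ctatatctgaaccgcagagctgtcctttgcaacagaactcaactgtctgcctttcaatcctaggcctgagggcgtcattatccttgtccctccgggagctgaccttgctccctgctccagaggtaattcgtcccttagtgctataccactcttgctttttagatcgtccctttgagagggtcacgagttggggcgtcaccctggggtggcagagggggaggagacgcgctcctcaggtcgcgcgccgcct

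The P2ry12 and P2ry13 windows each held 1 AGGAAG on the strand of the gene, starting 52 and 47 bases before the start. Adora3 held 1 CTTCCT, starting 29 bases before the start. The Adora3 window lies inside the GENCODE M21 span given above for the gene. The RefSeq start used for Adora3 is thus not the first base of that span. P2rx4 held neither. Over all 7 genes with a sequence, 6 held the motif in at least 1 of their windows, and 6 of the 10 windows held it, while 29.5% of 32851 windows of the same length in the table did. Because the motif was chosen from these sequences, these shares do not test whether the genes hold it more often than others. GC content was 41.6% for both P2ry12 and P2ry13, 48.8% for Adora3 and 57.2% for P2rx4, against a median of 52.4% over all windows. The P2ry12 window held 3 CpG dinucleotides, P2ry13 held 5, Adora3 held 0 and P2rx4 held 13, against a median of 6. A match of letters is a description, not a binding site.

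The 10 genes spanned a wide range of levels, and their order was much the same in both groups. P2ry12 had the highest mean (860 FPKM over the 6 libraries) and ranked 111 of all 47719 genes. It was above P2ry6 (mean 237 FPKM) in 6 of 6 libraries, and P2ry6 was above Entpd1 (mean 141 FPKM) in 6 of 6, with no overlap of ranges in either case. Entpd1 and Gpr34 (mean 138 FPKM) did not differ beyond their spread: Entpd1 was the higher in 3 of 6 libraries. Gpr34 was above P2ry13 (mean 119 FPKM) in 6 of 6 libraries, although their ranges overlapped. A gap followed, since P2ry13 was above Adora3 (mean 31.8 FPKM) in every library and the ranges did not meet. Adora3, P2rx7 (mean 17.8 FPKM) and P2rx4 (mean 17.4 FPKM) overlapped as neighbours in this order. Adora2a (mean 1.62 FPKM) lay below P2rx4 in 6 of 6 libraries, and it overlapped Adora1 (mean 0.704 FPKM). The receptors for ADP, UDP and lysophosphatidylserine were thus the abundant ones, with the ATP-gated channels and the adenosine receptors lower.

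**Figure D1:**
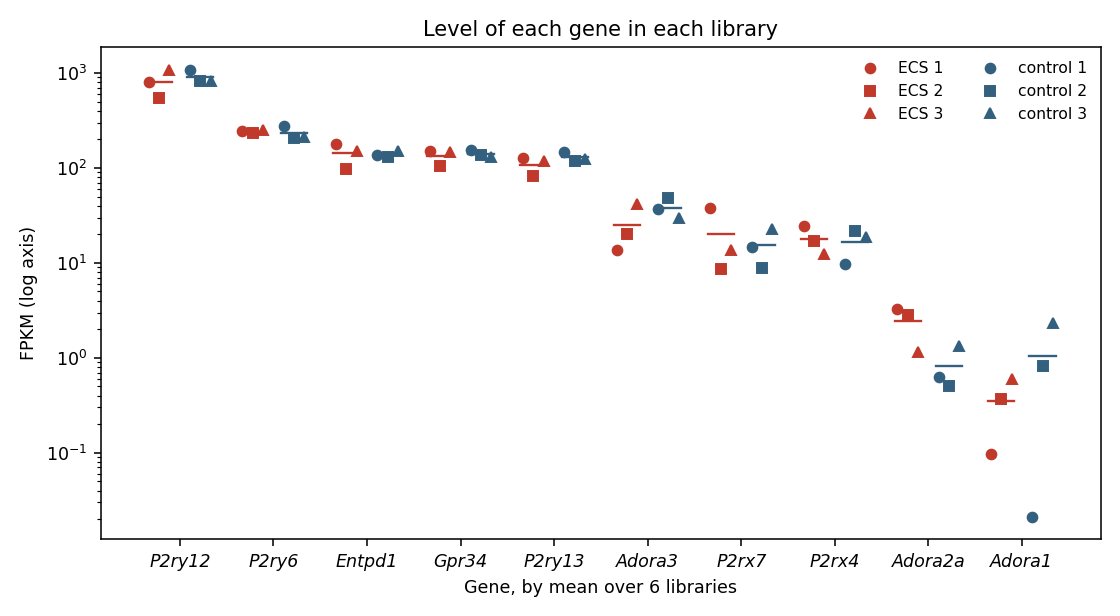
FPKM on a log axis of the 10 genes, ordered by mean, in the 3 ECS libraries (red, left of each pair) and the 3 control libraries (blue, right). Short lines are group means of FPKM, and for every gene the points of the groups overlap.

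The comparison of ECS with control asked whether these genes differ in spinal cord CD11b cells on the day after the last seizure. None of the 9 tested genes was called at a limma adjusted p under 0.05, and the background was 0% of the 11315 genes tested. At an unadjusted p under 0.05 there were 0 of 9, where 3.66% of all tested genes were. For 0 of the 10 genes did the values of the groups stand apart without overlap, which was so for 7.49% of tested genes. Exact two-sided permutation tests of the 10 genes gave p-values of 0.2 or more, where 0.1 is the smallest that 3 against 3 allows. Of the 9 genes, 4 had higher and 5 had lower values in ECS. Their median log2 fold change was -0.02, beside -0.01 over all genes tested. The intervals given below show which sizes of difference the data leave possible. They are 95% intervals from limma for the fold on the FPKM + 1 scale, ECS over control.

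P2ry12 was at 808, 540 and 1073 FPKM in ECS 1, 2 and 3, and at 1084, 831 and 821 FPKM in control 1, 2 and 3. ECS 2 was the lowest library, ECS 3 and control 1 were the highest, and the groups overlapped. Means were 807 ± 266 FPKM in ECS and 912 ± 149 FPKM in control (SD, n = 3 each). ECS over control, this was a log2 fold change of -0.22 ± 0.29 (SE; fold interval 0.534 to 1.38; limma adjusted p 1.00). Without ECS 2 it was 0.04, so the sign of this difference rested on that library.

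P2ry13, the other ADP receptor gene, shared its lowest library, ECS 2, and its highest, control 1, with P2ry12, but it was not high in ECS 3. It was at 126, 81.7 and 119 FPKM in ECS 1, 2 and 3, and at 147, 118 and 123 FPKM in control 1, 2 and 3. Its means were 109 ± 23.8 FPKM in ECS and 129 ± 15.5 FPKM in control (SD, n = 3 each). P2ry13 had a log2 fold change of -0.27 ± 0.26 (SE; fold interval 0.546 to 1.27; limma adjusted p 1.00), and without ECS 2 it was -0.07. P2ry12 exceeded P2ry13 by 6.41, 6.62 and 9.04 times in ECS 1, 2 and 3, and by 7.38, 7.06 and 6.67 times in control 1, 2 and 3.

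Gpr34, the lysophosphatidylserine receptor gene, was also lowest in ECS 2 and highest in control 1, within a narrower range. Its values were 149, 106 and 148 FPKM in ECS 1, 2 and 3, and 153, 138 and 132 FPKM in control 1, 2 and 3. For Gpr34 the log2 fold change was -0.08 ± 0.24 (SE; fold interval 0.642 to 1.39; limma adjusted p 1.00). Without ECS 2 it was 0.08, and without ECS 1 it was -0.16.

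P2ry6, the UDP receptor gene, varied least of the 10. It was at 243, 233 and 250 FPKM in ECS 1, 2 and 3, and at 277, 209 and 213 FPKM in control 1, 2 and 3. All ECS values fell between the lowest and the highest control value. Its means were 242 ± 8.11 FPKM in ECS and 233 ± 37.8 FPKM in control (SD, n = 3 each). P2ry6 had a log2 fold change of 0.07 ± 0.21 (SE; limma adjusted p 1.00), and without control 2 it was -0.0064. Its fold interval, 0.739 to 1.48, was the narrowest among the tested genes of the set. Unlike the other P2Y-family genes, P2ry6 was not low in ECS 2.

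P2ry12 thus made up 60.9%, 56.2% and 67.5% of the summed FPKM of the 4 P2Y-family genes in ECS 1, 2 and 3, and 65.3%, 64.2% and 63.7% in control 1, 2 and 3. The sum itself was 1326, 961 and 1590 FPKM in ECS 1, 2 and 3, and 1660, 1296 and 1289 FPKM in control 1, 2 and 3. It was lowest in ECS 2 and highest in control 1.

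Entpd1, which encodes the ATP- and ADP-degrading enzyme CD39, was at 177, 97.2 and 152 FPKM in ECS 1, 2 and 3, and at 138, 131 and 151 FPKM in control 1, 2 and 3. Both its highest and its lowest value were in ECS libraries, so its spread was larger there. Means were 142 ± 41.0 FPKM in ECS and 140 ± 10.04 FPKM in control (SD, n = 3 each). For Entpd1 the log2 fold change was -0.02 ± 0.28 (SE; fold interval 0.626 to 1.56; limma adjusted p 1.00), and it was -0.20 without ECS 1, 0.23 without ECS 2 and 0.04 without control 3. Nt5e, the gene of the AMP-degrading enzyme CD73 that acts after CD39, was far lower. It was at 2.61, 1.29 and 0.7304 FPKM in ECS 1, 2 and 3, and at 0.894, 1.73 and 3.37 FPKM in control 1, 2 and 3. Entpd1 exceeded it by at least 44.7 times in each library (lowest in control 3, highest in ECS 3 at 208 times). Nt5e was chosen after its values were seen.

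P2rx7, the gene of the ATP-gated channel linked to the inflammasome, varied more between libraries than any P2Y-family gene. It was at 38.1, 8.69 and 13.7 FPKM in ECS 1, 2 and 3, and at 14.8, 8.79 and 23.0 FPKM in control 1, 2 and 3. ECS 1 was the highest library, while ECS 2 and control 2 were the lowest and nearly equal. Means were 20.2 ± 15.7 FPKM in ECS and 15.5 ± 7.12 FPKM in control (SD, n = 3 each). P2rx7 had a log2 fold change of 0.20 ± 0.59 (SE; fold interval 0.440 to 2.98; limma adjusted p 1.00). Without ECS 1 it was -0.37 and without control 2 it was -0.13, so the sign rested on single libraries.

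P2rx4, its neighbour on chromosome 5, was at 24.7, 16.8 and 12.4 FPKM in ECS 1, 2 and 3, and at 9.86, 21.7 and 18.6 FPKM in control 1, 2 and 3. It shared its highest library, ECS 1, with P2rx7, but it was lowest in control 1. For P2rx4 the log2 fold change was 0.12 ± 0.42 (SE; fold interval 0.552 to 2.13; limma adjusted p 1.00). Without ECS 1 it was -0.13 and without control 1 it was -0.20. The P2rx7 level was 1.54, 0.517 and 1.099 times that of P2rx4 in ECS 1, 2 and 3, and 1.498, 0.404 and 1.23 times in control 1, 2 and 3. Either channel gene could therefore be the higher within a group.

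Adora3, which encodes an adenosine receptor coupled to inhibitory G proteins, was the main adenosine receptor gene in each library. It was at 13.8, 20.0 and 42.0 FPKM in ECS 1, 2 and 3, and at 36.7, 48.5 and 29.6 FPKM in control 1, 2 and 3. ECS 1 and ECS 2 lay below all control libraries, but ECS 3 lay above control 1 and control 3. Means were 25.3 ± 14.8 FPKM in ECS and 38.3 ± 9.52 FPKM in control (SD, n = 3 each). Adora3 had a log2 fold change of -0.70 ± 0.44 (SE; fold interval 0.300 to 1.26; limma adjusted p 1.00; exact permutation p 0.3). Without ECS 3 it was -1.13, with an unadjusted limma p of 0.0240 and an adjusted p of 0.937, and without ECS 1 it was -0.36.

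Adora2a, which encodes an adenosine receptor coupled to stimulatory G proteins, had the opposite pattern at a much lower level. It was at 3.27, 2.84 and 1.16 FPKM in ECS 1, 2 and 3, and at 0.629, 0.50 and 1.34 FPKM in control 1, 2 and 3. ECS 1 and ECS 2 lay above all control libraries, but ECS 3 lay below control 3. Means were 2.43 ± 1.12 FPKM in ECS and 0.822 ± 0.451 FPKM in control (SD, n = 3 each). For Adora2a the log2 fold change was 0.88 ± 0.53 (SE; fold interval 0.780 to 4.34; limma adjusted p 1.00; exact permutation p 0.2). It was 1.44 with a pseudocount of 0.1, since the FPKM + 1 scale understates the change of low genes. Without ECS 1 it was 0.69.

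The level of Adora3 was 4.20, 7.04 and 36.1 times that of Adora2a in ECS 1, 2 and 3, and 58.4, 96.9 and 22.1 times in control 1, 2 and 3. ECS 1 and ECS 2 had the lowest ratios, and ECS 3 lay within the range of the controls. Adora1, the gene of another receptor coupled to inhibitory G proteins, was at 0.0962, 0.366 and 0.597 FPKM in ECS 1, 2 and 3, and at 0.0211, 0.813 and 2.33 FPKM in control 1, 2 and 3. It was under 1 FPKM in 5 of 6 libraries, and an exact permutation test gave p = 0.5.

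**Figure D2:**
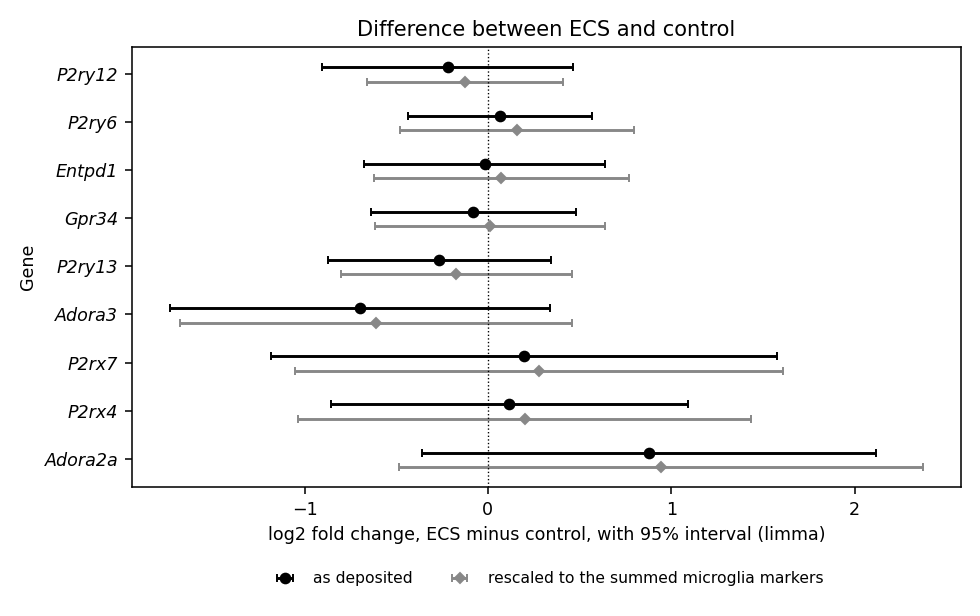
Log2 fold changes, ECS minus control, of the 9 tested genes with 95% limma intervals, from the values as deposited (black circles) and after rescaling each library to the same summed microglia markers (grey diamonds). All intervals include 0; those of P2ry6 and Gpr34 are among the narrowest, and those of Adora2a and P2rx7 are the widest.

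Several members were low or high in the same libraries as the microglia markers. ECS 2 was the lowest library for 5 of the 10 members (P2ry12, P2ry13, Gpr34, P2rx7 and Entpd1) and for 10 of the 12 microglia markers, beside 12.9% of all tested genes. Control 1 was the highest for 4 members, which were the 4 P2Y-family genes, and for 10 of the 12 microglia markers, beside 14.04% of all tested genes. Summed microglia markers were at 12522, 8665 and 13806.5 FPKM in ECS 1, 2 and 3, and at 15443, 11171 and 10542.5 FPKM in control 1, 2 and 3. In bulk RNA, fewer cells of a type and less RNA per cell cannot be told apart.

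Expressed as a percentage of that sum, P2ry12 was steadier. It was 6.45%, 6.24% and 7.77% in ECS 1, 2 and 3, and 7.02%, 7.44% and 7.79% in control 1, 2 and 3. Its coefficient of variation over the 6 libraries was 9.35% on this scale and 23.4% in FPKM. For P2ry13 the coefficient was 10.7% relative to the markers and 17.8% in FPKM, and for Gpr34 it was 8.93% and 12.7%. Entpd1 changed little, with 17.2% and 18.9%. P2ry6 went the other way, with 16.9% relative to the markers and 10.5% in FPKM, because its level in ECS 2 was near its mean while the markers were low. P2rx7 (61.0% and 62.9%), P2rx4 (39.1% and 32.2%), Adora3 (39.8% and 41.7%) and Adora2a (81.2% and 71.6%) varied widely on both scales. With libraries rescaled to the same marker sum, the log2 fold change was -0.13 for P2ry12, -0.17 for P2ry13, -0.61 for Adora3 and 0.94 for Adora2a, and none was called.

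**Figure D3:**
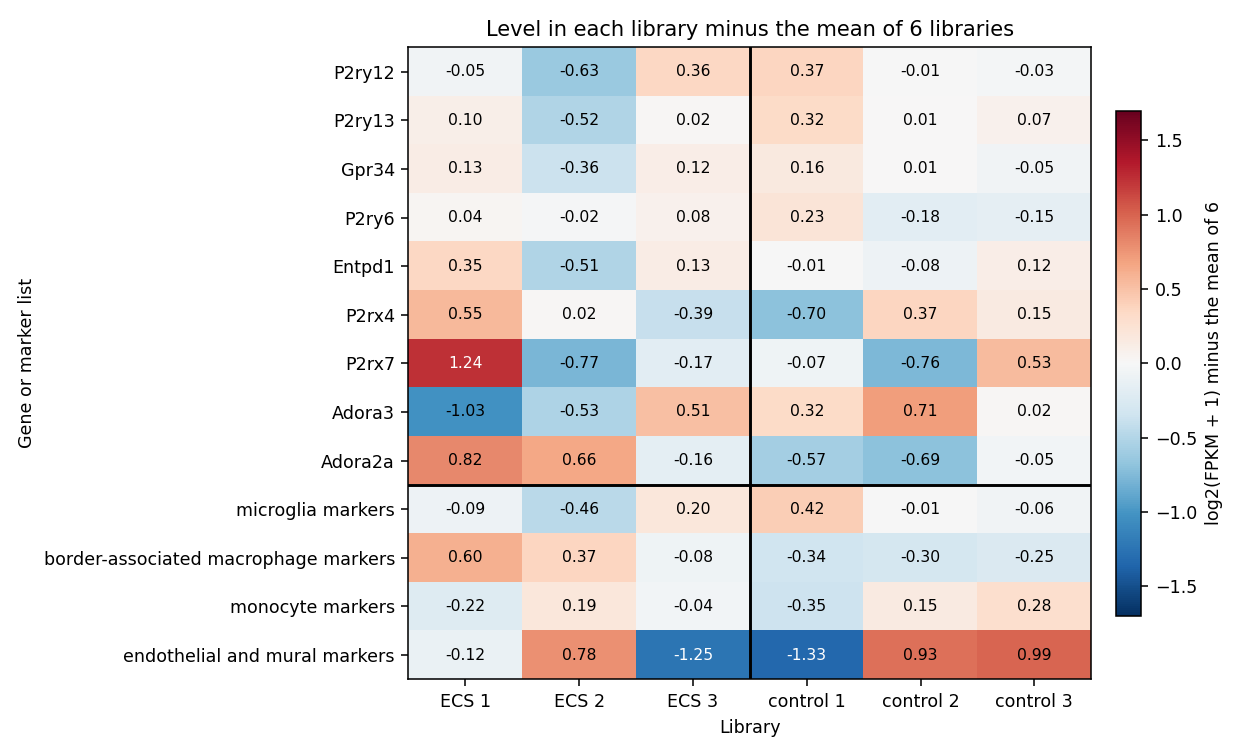
Difference of log2(FPKM + 1) from the mean of 6 libraries for the 9 tested genes (above the line) and for the mean of 4 marker lists (below it), in ECS (left) and control (right) libraries. P2ry12, P2ry13, Gpr34 and the microglia markers are all low in ECS 2 and high in control 1, while Adora2a and the mean of the border-associated macrophage markers are highest in ECS 1 and ECS 2.

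The means of some marker lists of other cell types were high in the same libraries as Adora2a. Border-associated macrophages live in the meninges and along blood vessels. Over their 10 markers the mean log2(FPKM + 1) was 4.28, 4.05 and 3.61 in ECS 1, 2 and 3, and 3.34, 3.38 and 3.44 in control 1, 2 and 3. Their summed level was 229 to 679 FPKM in ECS and 165 to 180 FPKM in control. For 2 of the 10 markers, Cbr2 and Clec10a, all ECS values lay above all control values. Groups stood apart, in either direction, for 7.49% of all tested genes. Pf4, which platelets also express, made up much of the sum in ECS 2 (427 FPKM). Cd209f was listed at 0 in ECS 1 and ECS 2, and Cd163 was between 0.217 and 3.26 FPKM in all libraries. Adora2a and the mean of this list had ECS 1 and ECS 2 as their highest libraries, but of the 10 single markers only Pf4 did. Mrc1 (4.83 FPKM) and Ms4a7 (1.18 FPKM) had their lowest value in ECS 2. The means of the erythroid and astrocyte lists were also highest in ECS 1 and ECS 2. For erythroid markers they were 6.17 and 6.61 there, and 3.82 to 5.89 in the other libraries. For astrocyte markers they were 1.56 and 1.53 there, and 0.602 to 1.32 in the other libraries. The part of any of these cell types in the Adora2a values was not tested.

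Other genes of the pathway came from a list of 65 receptors, enzymes, channels, transporters and signalling partners, of which 64 were in the table and 43 were tested. None was called, 22 had higher and 21 had lower values in ECS, and their median log2 fold change was 0.01. None reached an unadjusted limma p under 0.05. For 3 of the 43 the groups did not overlap, beside 7.49% of all tested genes. Another 10 were listed at 0 in every library, among them P2rx2, P2rx3, P2ry4 and Bdnf.

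Panx1 encodes a membrane channel through which ATP leaves cells, and it was among those 3 genes. It was at 6.21, 9.41 and 10.2 FPKM in ECS 1, 2 and 3, and at 15.5, 13.1 and 13.2 FPKM in control 1, 2 and 3. All ECS values lay below all control values. The log2 fold change of Panx1 was -0.66 ± 0.33 (SE; limma adjusted p 1.00; exact permutation p 0.1, the smallest possible here). Ak1, the gene of an adenylate kinase, also lay lower in all ECS libraries, at 9.15 to 12.01 FPKM, against 12.3 to 15.4 FPKM in control. Its log2 fold change was -0.30 ± 0.31 (SE). Abhd16a, whose product makes lysophosphatidylserine, lay higher, at 24.5 to 36.03 FPKM in ECS and 14.01 to 22.7 FPKM in control. The log2 fold change of Abhd16a was 0.56 ± 0.32 (SE), and neither Ak1 nor Abhd16a was called.

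Among receptors outside the set, P2ry2 alone had a mean of at least 10 FPKM. This gene of an ATP and UTP receptor averaged 12.05 ± 3.68 FPKM in ECS and 10.3 ± 6.08 FPKM in control (SD, n = 3 each). The nucleoside transporter genes were more abundant: Slc29a1 averaged 153 ± 30.4 FPKM in ECS and 171 ± 47.8 FPKM in control, and Slc29a3 averaged 75.5 ± 22.9 and 82.2 ± 23.5 FPKM in ECS and control (SD, n = 3 each). Slc17a9, which encodes the vesicular nucleotide transporter, averaged 11.9 ± 8.13 FPKM in ECS and 12.2 ± 11.6 FPKM in control. Of the phosphatase genes, Acpp averaged 23.2 ± 7.60 FPKM in ECS and 27.9 ± 7.86 FPKM in control. Alpl ranged from 4.397 to 28.9 FPKM in ECS and from 1.90 to 46.3 FPKM in control. None of these genes was called.

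Signalling partners were mostly abundant and did not pass either. Abhd12, whose product degrades lysophosphatidylserine, averaged 835 ± 207 FPKM in ECS and 862 ± 202 FPKM in control (SD, n = 3 each). Genes of G protein alpha subunits were close between the groups: Gnai2 averaged 463 ± 54.1 FPKM in ECS and 507 ± 68.9 FPKM in control, Gnas 320 ± 47.9 and 295 ± 12.2 FPKM, Gna13 54.1 ± 3.91 and 53.2 ± 4.82 FPKM, and Gnaq 10.5 ± 0.168 and 10.1 ± 1.203 FPKM in ECS and control (SD, n = 3 each). The arrestin gene Arrb2 averaged 428 ± 136 FPKM in ECS and 414 ± 75.1 FPKM in control. Kcnk6, a potassium channel gene, averaged 114 ± 47.2 FPKM in ECS and 81.2 ± 17.3 FPKM in control, and its log2 fold change was 0.44 ± 0.35 (SE). ECS 1 was its highest library, at 167 FPKM, and without it the log2 fold change of Kcnk6 was 0.13.

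Of the genes that act with P2X7, the inflammasome sensor gene Nlrp3 averaged 131 ± 23.5 FPKM in ECS and 138 ± 7.12 FPKM in control (SD, n = 3 each). Il1b, the cytokine gene, was at 344, 770 and 588 FPKM in ECS 1, 2 and 3, and at 393, 304 and 430 FPKM in control 1, 2 and 3. ECS 2 and ECS 3 lay above all controls, while ECS 1 lay below control 1 and control 3. The log2 fold change of Il1b was 0.53 ± 0.33 (SE; limma adjusted p 1.00), and it was 0.85 without ECS 1 and 0.27 without ECS 2. Gsdmd, the gene of the pore protein gasdermin D, averaged 33.7 ± 14.9 FPKM in ECS and 45.3 ± 4.83 FPKM in control. It was lowest in ECS 1, at 17.1 FPKM. Over all libraries Gsdmd had a log2 fold change of -0.52 ± 0.40 (SE), against -0.11 without ECS 1. P2rx7 was highest in ECS 1, which was the lowest library for both Nlrp3 and Gsdmd. That library held the highest value of 24.8% of all tested genes and the lowest of 32.2%.

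Irf8 and Irf5 encode transcription factors that are known to raise P2rx4 in spinal microglia. Irf8 averaged 28.9 ± 6.29 FPKM in ECS and 35.5 ± 7.63 FPKM in control, and Irf5 averaged 199 ± 40.0 FPKM in ECS and 202 ± 51.9 FPKM in control (SD, n = 3 each). Both were highest in control 1, the library in which P2rx4 was lowest. That library held the highest value of 14.04% of all tested genes and the lowest of 12.2%. It was also the highest for 10 of the 12 microglia markers. Neither Irf8 nor Irf5 was called, with log2 fold changes of -0.29 ± 0.31 (SE) for Irf8 and -0.01 ± 0.27 (SE) for Irf5. Without ECS 1 these were -0.11 for Irf8 and 0.07 for Irf5.

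**Figure D4:**
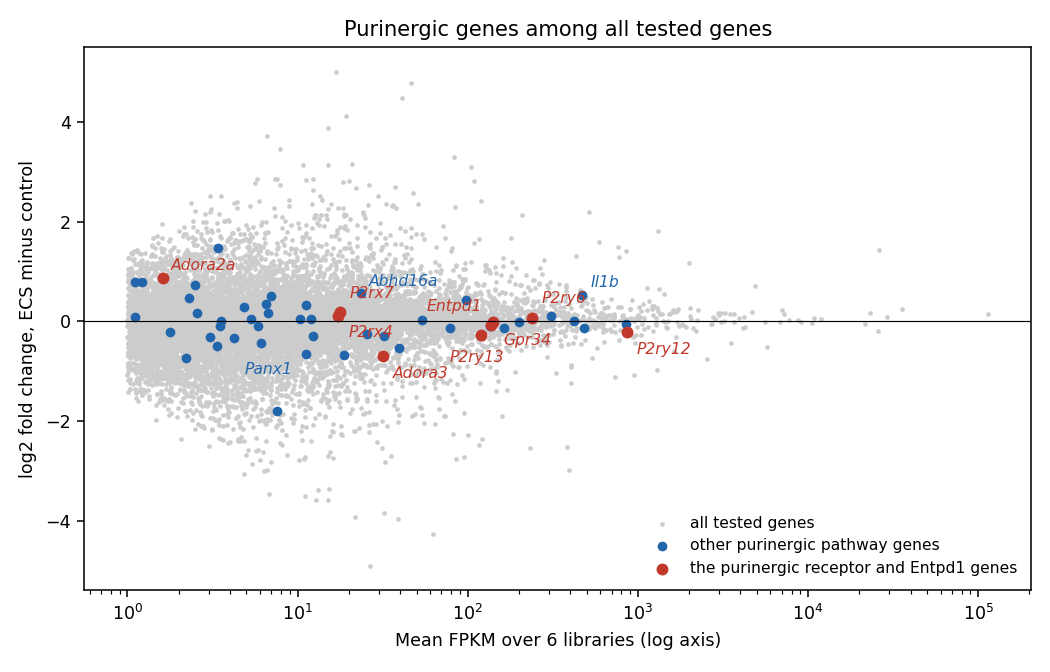
Log2 fold change, ECS minus control, against the mean FPKM over 6 libraries (log axis) for all 11315 tested genes (grey), the other purinergic pathway genes (blue) and the 9 tested members (red). The members lie within the spread of other genes at the same level, from Adora3 at -0.70 to Adora2a at 0.88.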

How the data were processed

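Poly(A) RNA of cells from dissociated spinal cord was made into libraries with a SENSE kit after removal of myelin and selection on CD11b beads, per the labels' protocols. The values deposited by the authors are FPKM per gene in each library. The submitters' processing notes list the aligner TopHat2, Cufflinks, Cuffnorm and the build GRCm38, and the sources used here do not give versions, annotation or scaling. The number of reads is unknown, so no counting interval is given.

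FPKM was transformed as log2(FPKM + 1), and genes averaging 1 FPKM or more were tested with limma 3.58.1 in R 4.3.3 (variance trend, ECS minus control, two-sided, Benjamini-Hochberg adjustment over all 11315 tested genes, threshold 0.05). Single genes also had an exact permutation test over the 6 libraries in scipy 1.17.1. The fit was tested on simulated data. Genes of the pathway list are named with values where their mean was at least 10 FPKM. Members, lists and tests were chosen with earlier results of these data known. Replicate numbers of the labels were not used as pairs in the main fit. Correlations of deviations from the group means were -0.04, 0.10 and -0.11 for numbers 1, 2 and 3. Such weak correlations cannot show whether libraries of the same number were handled together. Spread here is that from pool to pool, not from mouse to mouse. Figures were drawn with matplotlib 3.10.9.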

Additional observations from a re-analysis of the deposited data

How the results depend on the processing

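In limma, 0 members, 0 pathway genes and 0 genes lower in ECS were called under each of the 16 alternatives, including an adjusted p under 0.1 and the replicate block. The count of genes called higher in ECS was 1 with libraries rescaled to the same summed microglia markers, and 0 under the other 15. That gene, Gm16024, is no purinergic gene and was named after its values were seen. It was at 30.2, 18.2 and 52.8 FPKM in ECS 1, 2 and 3 and listed at 0 in all control libraries, with a limma adjusted p of 0.0439 there, 0.127 as deposited, and 0.0439 to 1.00 over all fits. Between 260 and 557 genes had an unadjusted p under 0.05 in those fits. The lowest adjusted p of a member was 0.874. The median over all genes was -0.087 after rescaling to equal totals and 0.076 after rescaling to the microglia markers. Adora2a, Adora3 and P2ry13 kept their direction in every alternative run, and with each library left out they ranged from 0.69 to 1.18, -1.13 to -0.36 and -0.38 to -0.073. Adora2a could not be fitted with a filter at 5 FPKM, which it did not pass. Each symbol stood on 1 row, so summing rows changed nothing. Some log2 fold changes changed sign, and the cause was not tested. With libraries rescaled to the same total FPKM it was -0.024 for P2ry6, -0.032 for Slc17a9, -0.033 for Gnaq, -0.063 for Gna13 and -0.074 for Arrb2. With libraries rescaled to the same summed microglia markers it was 0.012 for Gpr34, 0.074 for Entpd1, 0.0015 for Nlrp3, 0.080 for Irf5 and 0.044 for Abhd12. With library weights it was -0.15 for P2rx7, 0.0069 for Nlrp3, 0.018 for Irf5 and -0.082 for Arrb2. With quantile normalization it was -0.035 for Gna13 and -0.064 for Arrb2. With each library left out in turn, the value ranged from -0.45 to 0.042 for P2ry12, -0.0064 to 0.19 for P2ry6, -0.16 to 0.082 for Gpr34, -0.20 to 0.34 for P2rx4, -0.37 to 0.63 for P2rx7 and -0.20 to 0.23 for Entpd1. Among pathway genes it ranged from -0.13 to 0.73 for P2ry2, -1.88 to 0.14 for Alpl, -0.41 to 0.74 for Slc17a9, -0.36 to 0.051 for Slc29a1, -0.33 to 0.14 for Slc29a3, -0.18 to 0.066 for Nlrp3, -0.17 to 0.19 for Irf5, -0.23 to 0.13 for Abhd12, -0.042 to 0.10 for Gnaq, -0.044 to 0.085 for Gna13 and -0.21 to 0.25 for Arrb2. With 3 pools a group and an unknown number of reads, small differences were not detectable.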

Other observations

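Some genes of the pathway list below the level set for naming were uneven between libraries, and these were chosen after their values were seen. P2ry14, a receptor gene in the same merged locus as P2ry12 and P2ry13, was at 0.483, 9.48 and 0.599 FPKM in ECS 1, 2 and 3, and at 1.61, 1.08 and 2.24 FPKM in control 1, 2 and 3. It was highest in ECS 2, the library in which P2ry12 and P2ry13 were lowest. Entpd2, another ectonucleotidase gene, was at 20.5 FPKM in ECS 2 and listed at 0 in the other libraries. Kcnk13, the gene of a potassium channel that works with P2Y12 in microglia, was at 7.42, 1.73 and 7.94 FPKM in ECS 1, 2 and 3, and at 6.92, 2.63 and 5.398 FPKM in control 1, 2 and 3. Like P2ry12 it was lowest in ECS 2. Casp1, the inflammasome protease gene, was listed at 0 in ECS 1. It reached 4.55 FPKM in ECS 2 and 5.29 FPKM in ECS 3, and it was at 10.4, 20.0 and 5.05 FPKM in control 1, 2 and 3. An exact 0 in these values can be a failed estimate.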
